A study of Mus musculus with 4 samples.

Results

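Hox genes encode homeodomain transcription factors that give cells their position along the head-to-tail axis of the embryo. They lie side by side in 4 clusters (Hoxa, Hoxb, Hoxc and Hoxd), where genes with low paralog numbers act towards the head and genes with high numbers towards the tail. Away from their place of use the clusters are known to be held silent by Polycomb complexes, while Trithorax complexes keep active clusters on, and much of the tissue of the face and mouth forms in front of the domain in which Hox genes are switched on. The members examined here were the 39 protein-coding Hox genes of a RefSeq gene table of the mouse genome (GRCm38.p6), chosen by symbol, of 21887 protein-coding genes on the autosomes and sex chromosomes. Of these 21887 genes, 21440 could be given a 5′ end, among them all 39 Hox genes.

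The data were 1 list of open chromatin regions from bulk ATAC-seq, which maps the stretches of the genome that the Tn5 transposase can enter. According to the labels, the list belongs to 4 samples of organoids grown from the submandibular salivary gland of C57BL/6 mice (mSGOs), all non-irradiated and cultured in Matrigel in the same growth medium with EGF, FGF2, R-spondin1 and Wnt3a. There were 2 samples at passage 1 and 2 at passage 2. In each case 1 donor mouse was labelled 12 weeks old and the other 3 months old, nearly the same age in other units. The study's methods state that the mice were female and that the ATAC-seq organoids came from 4 mice. No value in the list belongs to a single sample, so replicate spread and depth are unknown and passages could not be compared. No difference given here was tested. The organoids hold several epithelial cell types, so a region open in few cells and a region open weakly in many cannot be told apart.

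All 32011 distinct regions of the list were used. A gene was counted as having an open 5′ end where the midpoint of a region lay within 1 kb of its outermost 5′ end. Salivary epithelial markers had such a region in 9 of 12 genes, beside 38.3% of all coding genes, among them Krt5 and Krt14 of basal cells, Krt8 of luminal cells, Epcam, Sox9, Cd44 and Itgb1. Krt18, Krt7 and Trp63 did not. For Trp63 only the outermost 5′ end was examined, so a region at an inner start of this gene would not be counted. Of 18 markers of other cells, 1 of 6 immune markers (Cd68), 0 of 6 endothelial markers and 0 of 6 fibroblast markers had one.

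No region was listed at the 5′ end of any of the 39 Hox genes (0 of 39, 95% Wilson interval 0 to 8.97%, counting error only). The list was used as received, and whether it holds every region that was called is not known, so each count of 0 given here says only that no region is in this list. Over all coding genes, 8206 of 21440 (38.3%) had one. The count was 0 of 11 in Hoxa, 0 of 10 in Hoxb, 0 of 9 in Hoxc and 0 of 9 in Hoxd. It was 0 of 8 for paralogs 1 to 3, which act nearest the head, 0 of 15 for paralogs 4 to 8 and 0 of 16 for paralogs 9 to 13, which pattern the limbs, the urogenital tract and the tail end of the trunk. The 4 clusters therefore did not differ from one another in this count, and no order along them could be read from it. Genes of a cluster are neighbours on 1 chromosome, so the 39 genes stand for 4 loci and not for 39 separate observations.

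Nor was a region listed anywhere inside the clusters. The spans from the first to the last Hox gene measured 106 kb (Hoxa), 174 kb (Hoxb), 116 kb (Hoxc) and 96.9 kb (Hoxd), 492 kb in all, and together held 0 regions. Over the genome, 100 kb tiles held 1.18 regions on average, with 0 regions in 15179 of 27227 tiles (55.7%). On the 4 chromosomes that carry Hox clusters, the mean was 1.31. Most of the genome holds few genes, and tiles with at least 5 coding 5′ ends held a median of 3 regions (quartiles 2 and 5), with 0 regions in 118 of 698 (16.9%). Tiles without a region were thus common in the genome and less common among tiles rich in genes.

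**Figure D1:**
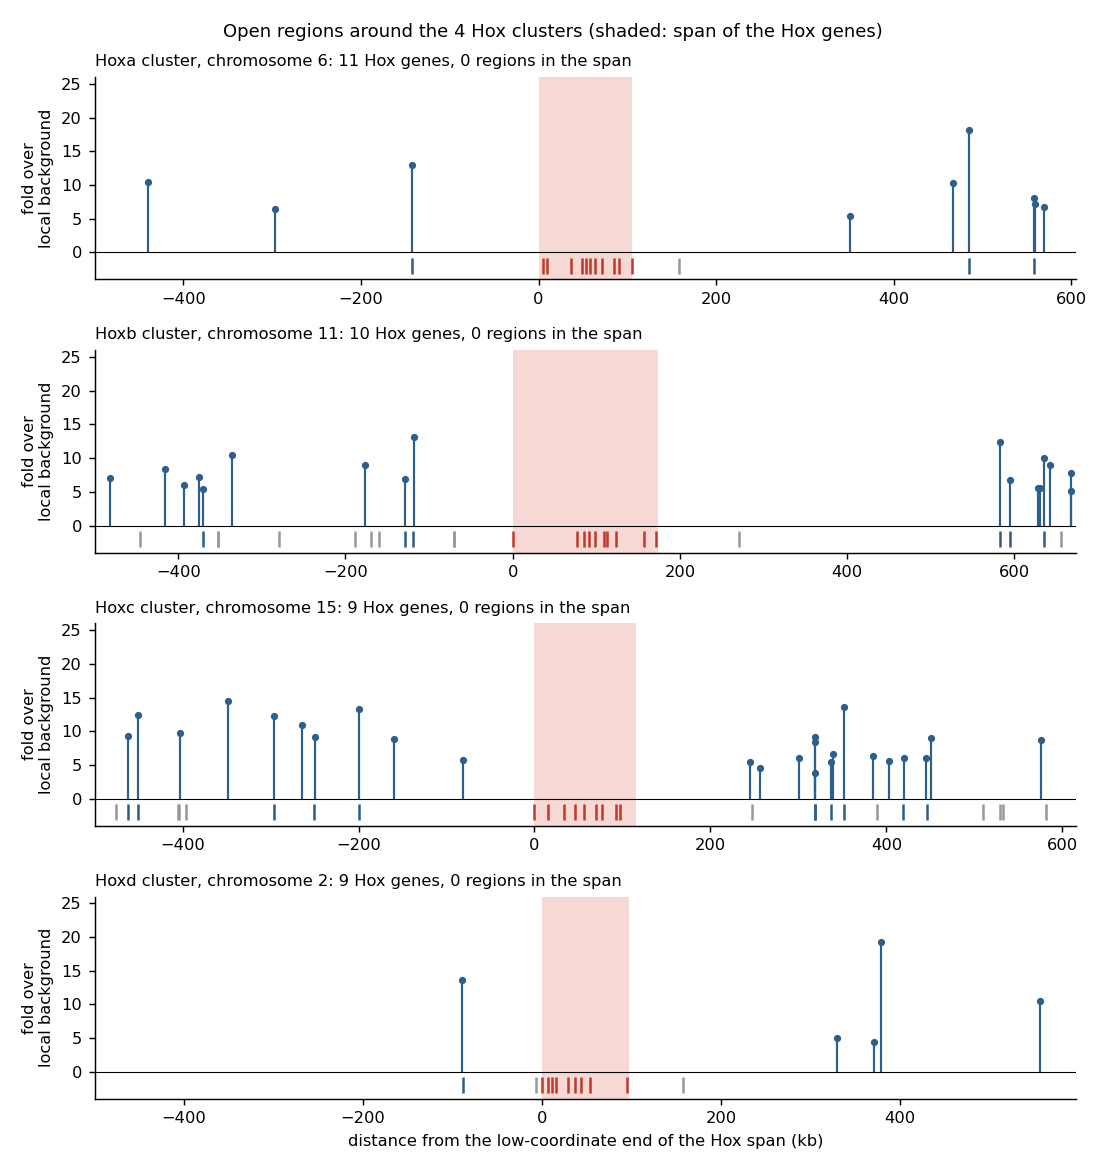
Open regions around the Hoxa, Hoxb, Hoxc and Hoxd clusters: the x axis gives the distance in kb from the low-coordinate end of the Hox span (shaded), and each vertical line is a region whose height is its fold over the local background. Ticks below 0 are coding 5′ ends, red for Hox genes, blue for other genes with a region within 1 kb and grey for other genes without one; all 4 shaded spans hold 0 regions.

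The sequence at the start of some Hox genes is rich in CpG. Over all coding genes, starts rich in CpG had a region in this list more often than starts poor in CpG. A RefSeq promoter table of the same build held 24 starts of 22 of the 39 Hox genes, as 300 bases from 250 before to 50 after each start. The 250 bases before the start are shown for the most CpG-rich listed start in Hoxa, Hoxb and Hoxd, 5′ to 3′ on the strand of the gene, with each CpG in capitals. Tgif1 and Six2 are shown beside them as homeobox genes outside the clusters whose start did have a region. They are the open starts of highest CpG ratio among the TALE cofactors and among the mouth and ectoderm homeobox genes listed further on.
Hoxa5 (GRCm38.p6, chr6:52204588-52204837, minus strand, no region within 1 kb): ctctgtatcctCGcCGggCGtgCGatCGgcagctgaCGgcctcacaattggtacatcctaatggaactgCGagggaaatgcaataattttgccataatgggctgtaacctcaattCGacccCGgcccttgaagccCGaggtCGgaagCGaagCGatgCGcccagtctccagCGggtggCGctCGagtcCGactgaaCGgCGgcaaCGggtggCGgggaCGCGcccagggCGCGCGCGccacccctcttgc
Hoxb8 (GRCm38.p6, chr11:96281655-96281904, plus strand, no region within 1 kb): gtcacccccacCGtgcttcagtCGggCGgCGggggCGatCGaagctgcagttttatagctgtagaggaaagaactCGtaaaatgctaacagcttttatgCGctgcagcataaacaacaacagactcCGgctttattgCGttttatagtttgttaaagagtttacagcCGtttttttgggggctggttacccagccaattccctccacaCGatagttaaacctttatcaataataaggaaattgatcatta
Hoxd3 (GRCm38.p6, chr2:74711743-74711992, plus strand, no region within 1 kb): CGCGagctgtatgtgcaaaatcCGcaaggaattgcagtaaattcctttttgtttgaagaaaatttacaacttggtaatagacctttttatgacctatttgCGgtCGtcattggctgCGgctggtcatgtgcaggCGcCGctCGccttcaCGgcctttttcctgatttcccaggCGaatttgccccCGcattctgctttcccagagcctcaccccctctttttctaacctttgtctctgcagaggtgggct
Tgif1 (GRCm38.p6, chr17:70851735-70851984, minus strand, region of fold 4.01): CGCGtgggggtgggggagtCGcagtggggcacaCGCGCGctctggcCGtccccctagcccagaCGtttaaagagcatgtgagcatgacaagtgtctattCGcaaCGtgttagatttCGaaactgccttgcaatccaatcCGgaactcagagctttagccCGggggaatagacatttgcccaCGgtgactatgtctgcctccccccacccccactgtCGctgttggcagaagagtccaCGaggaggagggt
Six2 (GRCm38.p6, chr17:85688255-85688504, minus strand, region of fold 4.83): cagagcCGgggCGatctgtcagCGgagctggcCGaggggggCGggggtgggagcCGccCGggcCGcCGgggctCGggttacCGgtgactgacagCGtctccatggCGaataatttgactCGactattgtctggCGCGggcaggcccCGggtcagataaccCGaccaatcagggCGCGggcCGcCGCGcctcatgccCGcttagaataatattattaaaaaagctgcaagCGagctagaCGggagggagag

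The 250 bases printed for Hoxa5 hold 28 CpG, against 26 for Six2, 16 for Tgif1 and 12 each for Hoxb8 and Hoxd3. Over the whole 300 bases, the observed number of CpG divided by the number that the C and G content would give (the CpG ratio) was 1.02 for Hoxa5, 0.970 for Hoxb8, 0.920 for Hoxd3, 0.807 for Tgif1 and 1.13 for Six2. At Tgif1 the strongest region within 1 kb of this start lay at chr17:70851570-70851965, and at Six2 it lay at chr17:85687977-85688549, over the start itself. The 3 Hox starts had their nearest region 192, 206 and 133 kb away. The 5 starts were chosen by their CpG ratio and by whether they had a region, so they serve as examples only.

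The 24 Hox starts had a median CpG ratio of 0.626 (quartiles 0.399 and 0.883) and a median GC content of 57.7%, beside 0.567 (quartiles 0.226 and 0.827) and 56.3% over all 21263 coding starts in the table. The highest ratios after that of Hoxa5 were at Hoxb8, Hoxa6 (0.923), Hoxd3, Hoxa13 (0.918) and Hoxd13 (0.904). Hoxa13 and Hoxd13, which pattern the ends of the limbs and the urogenital tract, held the most CpG in 300 bases, with 45 and 37. The lowest ratios were at the outermost start of Hoxd11 (0.257) and at Hoxa9 (0.280), and the only listed Hoxc start, that of Hoxc4, had a ratio of 0.333. At the other listed start of Hoxd11 the ratio was 0.875. Hoxa10 also had a CpG-poorer outermost start (0.596) and a CpG-richer inner one (0.853).

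None of the 24 listed Hox starts, inner ones included, had a region within 1 kb, while 8552 of 21263 coding starts (40.2%) did. Across coding starts the share with a region rose with the CpG ratio, from 4.79% below a ratio of 0.2 to 37.7% between 0.4 and 0.6, 61.0% between 0.6 and 0.8, 70.6% between 0.8 and 1.0, and 72.1% from 1.0 upwards. Of coding starts at or above the Hox median of 0.626, 6554 of 9685 (67.7%) had a region. All 12 Hox starts at or above that median had none. The 8 Hox starts with ratios between 0.8 and 1.0 thus stood among 4254 starts of which 3003 had a region. No test of the Hox starts against other CpG-rich starts was made.

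**Figure D2:**
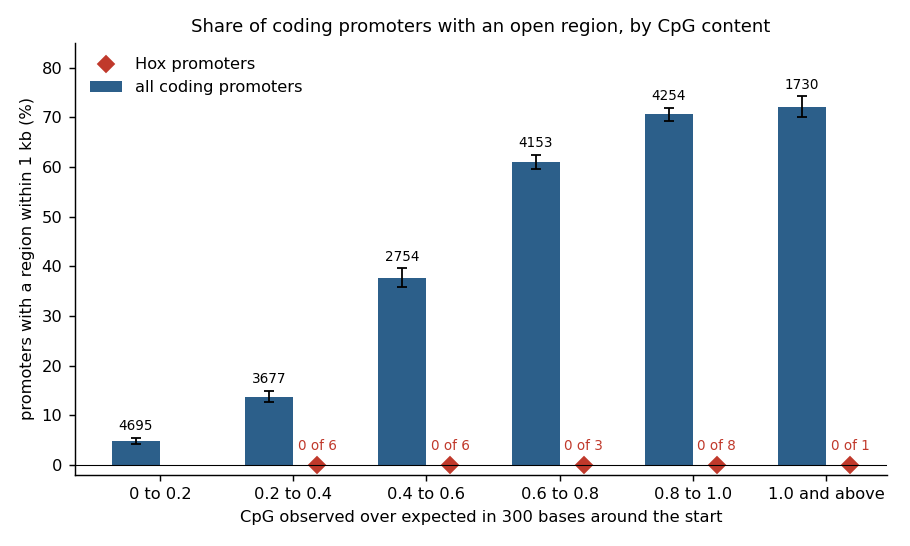
Share of coding starts with a region within 1 kb (y axis, percent) by CpG ratio in the 300 bases around the start (x axis), with 95% Wilson intervals and the number of starts above each bar. Bars climb from 4.79% to 72.1%, while the red diamonds of the Hox starts stay at 0 in each of the 5 bins that hold any.

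Short letter patterns were searched on either strand of the 300 bases, as a description of the sequences and not of binding. CCAAT, the core of the NF-Y site, was in 15 of 24 Hox starts (62.5%), in 38.2% of all coding starts and in 36.4% of those at or above the Hox median CpG ratio. GGGCGG, the GC box bound by SP and KLF factors, was in 10 of 24 (41.7%) beside 46.2% of all coding starts and 74.7% of the CpG-rich ones. TATAAA was in 4 of 24 (16.7%, in Hoxa10, Hoxb8, Hoxd4 and Hoxd13) beside 12.6% of all and 5.48% of the CpG-rich ones. TGATTNAT, a composite site of PBX and HOX proteins, was in those of Hoxa2 and Hoxd11 (8.33%) beside 2.75% of all and 0.847% of the CpG-rich ones. TGACAG, the site of MEIS and PKNOX proteins, was in those of Hoxa2 and Hoxa3 (8.33%) beside 18.7% of all and 14.2% of the CpG-rich ones. The patterns can overlap one another, and no pattern was compared by a test.

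Regions were also missing for long distances around the clusters. The distance from a Hox 5′ end to the midpoint of the nearest region ran from 81.2 kb for Hoxc13 to 290 kb for Hoxb1, with a median of 158 kb. For all coding genes the median was 7.62 kb (quartiles 0.136 and 52.5 kb). A distance of at least 81.2 kb was found for 4234 of 21440 coding genes (19.7%), and for 567 of the 9685 CpG-rich starts (5.85%). Within 50 kb on either side, 39 of 39 Hox genes had 0 regions, as did 5516 of 21440 coding genes (25.7%), for which the median was 2 regions (quartiles 0 and 4). The median distance was 222 kb in Hoxb, 201 kb in Hoxa, 137 kb in Hoxc and 119 kb in Hoxd. The ranges of Hoxb (118 to 290 kb), Hoxc (81.2 to 158 kb) and Hoxd (89.4 to 184 kb) overlapped one another, and the highest value in Hoxa was 245 kb.

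**Figure D3:**
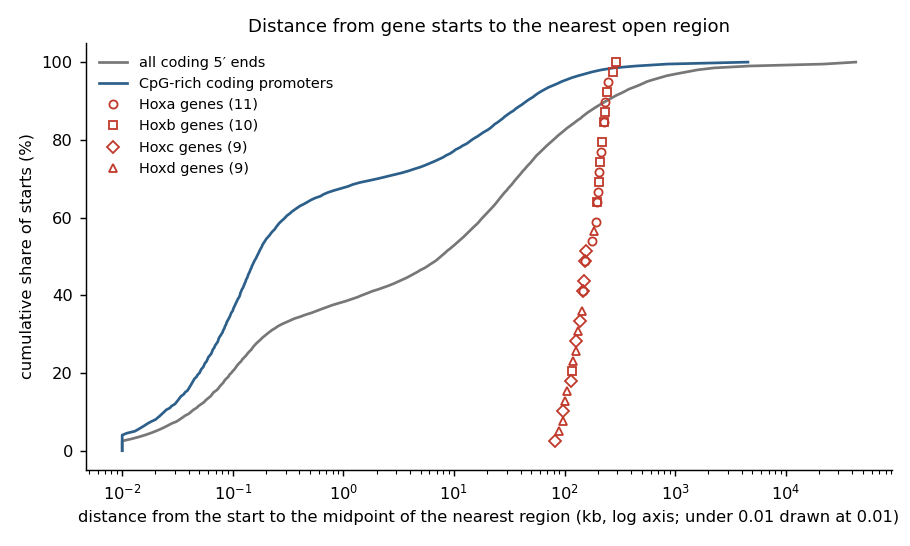
Cumulative share of starts (y axis, percent) by the distance to the midpoint of the nearest region (x axis, kb, log scale) for all coding 5′ ends, for CpG-rich coding starts at or above a CpG ratio of 0.626, and for the 39 Hox genes with 1 symbol per cluster. All Hox symbols lie at 81.2 kb or beyond, whereas the median over all coding genes is 7.62 kb.

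Each cluster lay inside 1 unbroken stretch without a region. The stretch was 701 kb long around Hoxb (chr11:96076178-96777356), 493 kb around Hoxa (chr6:52012884-52505798), 418 kb around Hoxd (chr2:74579299-74997760) and 326 kb around Hoxc (chr15:102840023-103165531). Stretches between neighbouring regions had a median length of 23.6 kb (quartiles 7.53 and 62.6 kb) over 31990 stretches. Of these, 1.69% were at least as long as that of Hoxb, 2.62% as that of Hoxa, 3.24% as that of Hoxd and 4.34% as that of Hoxc. In numbers these were 540, 838, 1035 and 1387 stretches. Each Hox stretch had to be at least as long as its empty span, of 96.9 to 174 kb, which already passes the upper quartile. A given position also falls more often in a long stretch than in a short one. The shares thus partly restate that the spans hold 0 regions. Of all 31990 stretches, short ones included, 24493 (76.6%) held no coding 5′ end. That share was not taken for long stretches alone, many of which hold coding 5′ ends. Those around the Hox clusters held 46 coding 5′ ends, 39 of them Hox genes, besides 48 of noncoding genes and pseudogenes.

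At least 9 coding 5′ ends, the lowest number in a Hox stretch, lay in 127 stretches. Of the other 123, 31 were led by olfactory receptor genes and 10 by vomeronasal receptor genes, the receptors of the nose, and 27 by predicted genes with Gm symbols. CpG-rich starts were absent from 80 of these 123, whose median was 0. Only starts in the promoter table could be counted. It listed no gene in a stretch with 38 coding 5′ ends and in another with 18, both on chromosome 18. The stretch of Hoxd held 7 CpG-rich coding starts, those of Hoxd1, Hoxd3, Hoxd10, Hoxd11, Hoxd13, Evx2 and Mtx2, and the stretch of Hoxa held 7, those of Hoxa3, Hoxa5, Hoxa6, Hoxa10, Hoxa11, Hoxa13 and Evx1. Of all 31990 stretches, 4 held at least 7, the other 2 lying on chromosomes 4 and 12, with mostly predicted genes. The cut for CpG-rich was the Hox median of 0.626, so 12 of the 24 listed Hox starts pass it by definition. The place of the Hoxa and Hoxd stretches in this count is partly set by that choice. Around Hoxb and Hoxc the number was 1 each, where the promoter table listed 4 and 2 coding genes. The one around Hoxb was that of Hoxb8, and the one around Hoxc was no Hox start but an inner start of Smug1, whose outermost 5′ end lies beyond the stretch. By fixed 100 kb tiles, 651 tiles held at least 3 CpG-rich coding starts, and 6 of them (0.922%) held 0 regions. Of these 6, 1 held Hoxa genes and 1 Hoxd genes. The tiles were counted with the same cut, so the same limit holds for them.

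**Figure D4:**
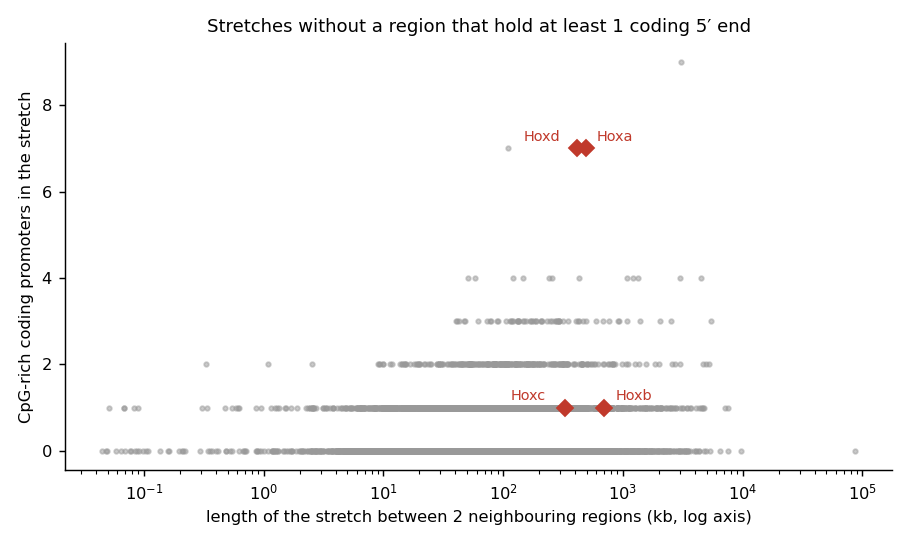
Stretches between neighbouring regions that hold at least 1 coding 5′ end, by length (x axis, kb, log scale) and number of CpG-rich coding starts (y axis), with the 4 stretches around the Hox clusters in red. Those of Hoxa and Hoxd sit at 7 CpG-rich starts, a number that 2 other stretches reach or pass, while those of Hoxb and Hoxc sit at 1.

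Around Hoxa, the stretch ended on the side of the low paralog numbers at a strong region at the 5′ end of Skap2, an adaptor protein gene (chr6:52012005-52012883, 12.9-fold over the local background, IDR score 1000, 4 summits). That region was the nearest for 10 of the 11 Hoxa genes. On the side of Hoxa13 the stretch ended at a weaker region with 1 summit (chr6:52505799-52506149, 5.47-fold, IDR score 609), 245 kb beyond the span and 134 kb from the nearest coding 5′ end. Evx1, a homeobox gene 52.6 kb beyond Hoxa13, had its nearest region 192 kb away. The next coding gene with a region on that side was Hibadh, of valine breakdown, whose region was 18.1-fold over background.

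For Hoxb, strong regions stood at both ends of the stretch. On the side of Hoxb13 it ended at the 5′ end of Atp5g1, a subunit of the mitochondrial ATP synthase (chr11:96075475-96076177, 13.2-fold, IDR score 1000), 118 kb beyond the span. On the side of Hoxb1 it ended at the 5′ end of Snx11, a sorting nexin (chr11:96777357-96777937, 12.3-fold, IDR score 1000), 409 kb beyond it. Skap1, an adaptor protein gene of T cells, lies between Hoxb1 and Snx11 and had its nearest region 313 kb from its 5′ end. Ttll6 and Calcoco2 lie between Hoxb13 and Atp5g1, with the nearest region 48.6 and 48.7 kb away. Hoxb13 stands apart from the rest of its cluster in position, and it was the Hoxb gene nearest to a region (118 kb, against 196 kb for Hoxb9).

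The regions nearest to Hoxc were weak on both sides. On the side of Hoxc13, a region at chr15:102839759-102840022 (5.69-fold, IDR score 683) lay 81.2 kb beyond the span, with Hoxc13, a regulator of hair and nail keratins, as the coding gene with the nearest 5′ end. It was the region of the list closest to any Hox gene. On the side of Hoxc4, a region at chr15:103165532-103165722 (5.41-fold, IDR score 665) lay within Smug1, a DNA repair gene, 3.31 kb from its 5′ end. The next coding genes with a region at the 5′ end were Calcoco1 (13.4-fold) and Cbx5, which encodes a heterochromatin protein (9.08-fold). They lay 199 and 203 kb from the span.

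The stretch around Hoxd ended on the side of Hoxd13 at the 5′ end of Lnpk, a gene of the endoplasmic reticulum (chr2:74578275-74579298, 13.6-fold, IDR score 1000). This region had 5 summits and was the nearest for all 9 Hoxd genes. Evx2, a homeobox gene 6.71 kb beyond Hoxd13, lay 82.7 kb from it. On the side of Hoxd1, the stretch ended at a region with 1 summit, 233 kb beyond the span (chr2:74997761-74998165, 5.03-fold, IDR score 590), past Mtx2, a gene of mitochondrial protein import whose nearest region was 172 kb away. The next coding gene with a region on that side was Hnrnpa3, 894 kb from the span (12.6-fold). Both sides of this cluster are known to hold limb and genital enhancers.

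Within 100 kb of the spans, 800 kb in all, 2 regions were listed, that at Lnpk and that beyond Hoxc13. Both lay on the side of the high paralog numbers, and the 4 flanks on the side of paralog 1 or 4 held 0. The Lnpk region, at 13.6-fold, was above the median of 7.90-fold (quartiles 6.05 and 10.6) for the 8178 regions within 1 kb of coding 5′ ends. The region beyond Hoxc13, at 5.69-fold, is far from any coding 5′ end and is not of that kind. It was below the median of the whole list, 7.11-fold, and regions far from coding 5′ ends were not summarised on their own. Regions down to 1.71-fold were listed elsewhere. Within 50 kb of the spans 0 regions were listed, and within 200 kb 11 were. Within 100 kb, 6 other coding genes had their 5′ end (Evx1, Ttll6, Calcoco2, Skap1, Evx2 and Mtx2) and no region there, while Lnpk had one.

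The clusters also hold noncoding genes. Of 29 such genes with a 5′ end inside the spans, 22 were long noncoding RNAs, 6 microRNAs and 1 a pseudogene, and none had a region within 1 kb, against 1951 of 23777 noncoding genes of the table (8.21%). Hotairm1, an RNA of the Hoxa cluster, lay 146 kb from the nearest region, Hotair, between Hoxc11 and Hoxc12, 108 kb, and Haglr, beside Hoxd1, 184 kb. Hottip, just beyond Hoxa13, lay 243 kb from one. RNA was not measured, so the list does not show whether any of these genes was transcribed.

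Of the 6 microRNA genes, the 3 miR-196 and 2 miR-10 genes belong to families found in more than 1 cluster, while Mir615 lies in Hoxc alone. Their mature 5p forms are shown with the seed, bases 2 to 8, in capitals, to show which of them share it.
mmu-miR-196b-5p (Hoxa, chr6:52230129-52230150, minus strand): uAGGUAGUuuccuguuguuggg
mmu-miR-196a-5p (Hoxb, chr11:96265187-96265208, and Hoxc, chr15:102973365-102973386, plus strand): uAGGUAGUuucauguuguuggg
mmu-miR-10a-5p (Hoxb, chr11:96317186-96317208, plus strand): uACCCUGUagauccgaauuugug
mmu-miR-10b-5p (Hoxd, chr2:74726074-74726096, plus strand): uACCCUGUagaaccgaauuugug
mmu-miR-615-5p (Hoxc, chr15:103014926-103014947, plus strand): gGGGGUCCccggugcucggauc

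The seed AGGUAGU was shared by the 5p forms of the 3 miR-196 genes, which lie between paralogs 9 and 10 or beside paralog 9, and ACCCUGU by those of the 2 miR-10 genes, Mir10a just before the 5′ end of Hoxb4 and Mir10b inside Hoxd4. The nearest region lay 218 kb from Mir196b, 189 kb from Mir196a-1, 133 kb from Mir196a-2, 241 kb from Mir10a, 147 kb from Mir10b and 151 kb from Mir615. No gene of either family in these clusters was thus nearer to a region than 133 kb. The sequences are those of RefSeq (GRCm38.p6).

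Lists of genes that work with Hox proteins or on Hox chromatin were read against the 38.3% of all coding genes with an open 5′ end, without a test. Of 11 TALE homeobox genes (the PBX, MEIS, PKNOX and TGIF families, of which PBX, MEIS and PKNOX proteins bind DNA with HOX proteins), 8 had a region at the 5′ end (72.7%, 95% Wilson interval 43.4 to 90.3%, beside 38.3% of all coding genes). Meis1 (9.18-fold) and Pknox1 (8.66-fold) each had 2 regions there. Tgif1, Pknox2 and Meis2 had weaker regions of 4.19-, 4.64- and 5.18-fold. Meis3 and Tgif2 were among those with none. With the list limited to its 16006 regions of lowest q-value, the count was 3 of 11, and with regions of IDR score 1000 it was 4 of 11 (5549 and 5153 of all 21440 coding genes). Within 500 bp it was 5 of 11 (45.5%, beside 35.4% of all coding genes).

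An open 5′ end was found for 16 of 21 Polycomb genes (76.2%, beside 38.3% of all coding genes). All 4 of Ezh1, Ezh2, Eed and Suz12, which make up the core of the H3K27 methyltransferase PRC2, had one (10.1-, 9.73-, 8.42- and 11.1-fold). Of the PRC1 genes, Rnf2 (10.6-fold), Ring1 (4.34-fold), Pcgf2 (7.44-fold) and Cbx8 (7.41-fold) had one, and Bmi1 and Phc3 did not. Of 11 genes of Trithorax-type complexes and H3K27 demethylases, 4 had one (Kmt2b, Men1, Wdr5 and Rbbp5), which at 36.4% is near the 38.3% of all coding genes. Kmt2a, whose product keeps Hox genes active in many tissues, had its nearest region 1.39 kb from the 5′ end, and within 2 kb the count was 8 of 11, beside 41.4% of all coding genes at that distance. Histone marks were not measured here.

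Of 10 genes known to act on Hox transcription, 2 were open at the 5′ end (20.0%, interval 5.67 to 51.0%, which covers the 38.3% of all coding genes). They include Ctcf, which encodes the insulator protein that binds between Hox genes (6.00-fold). Cdx1, Cdx2 and Cdx4, caudal factors that act upstream of Hox genes in the trunk, had none, with the nearest region 141, 14.0 and 22.3 kb away. The retinoic acid receptor genes Rara, Rarb and Rarg had none at the outermost 5′ end either (5.57, 69.4 and 5.33 kb), but 2 of 4 listed starts of Rara and 1 of 2 of Rarg did. Egr2, a hindbrain factor, was at 1.77 kb by its outermost end, while all 5 of its listed starts had a region. Gdf11, a signal for trunk identity, was at 3.94 kb. The outermost end can thus miss a region at an inner start, which was not the case at any of the 24 listed Hox starts. Among the Trithorax and demethylase genes counted without a region, 3 of 4 listed starts of Dpy30 and the 1 of Kdm6a had one. The reverse also occurred. Krt14, Meis2 and Pcgf2 had a region at the outermost end and none within 1 kb of their 1 listed start.

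Other homeobox genes ranged from none to some. Of 10 ParaHox and Hox-like genes (Gsx1, Gsx2, Pdx1, Evx1, Evx2, Mnx1, Gbx1, Gbx2, Meox1 and Meox2), relatives of the Hox genes by sequence, none was open at the 5′ end (0 of 10, interval 0 to 27.8%, beside 38.3% of all coding genes). Their nearest region lay from 3.38 kb (Gbx1) to 192 kb (Evx1) away, and 5 of 10 had 1 or more regions within 50 kb. Of 27 homeobox genes of the mouth and ectoderm, 6 had one (22.2%, interval 10.6 to 40.8%, which covers the 38.3% of all coding genes), among them Six2, Irx1 (4.68-fold), Irx3 (7.82-fold) and Irx5 (5.81-fold). Under both stricter sets of regions the count was 3 of 27 (11.1%). Of all coding genes, 25.9% had one with the lowest q-values and 24.0% with an IDR score of 1000. With either gene end it was 9 of 27 (33.3%), beside 39.9% of all coding genes. Dlx1, Dlx2 and Dlx3 had none at the outermost 5′ end but lay 1.59, 3.70 and 2.95 kb from one, and the 1 listed start of Dlx1 had a region, as did that of Irx2. Msx1, a factor of tooth and palate formation, was 373 kb from the nearest region, farther than any Hox gene.

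**Figure D5:**
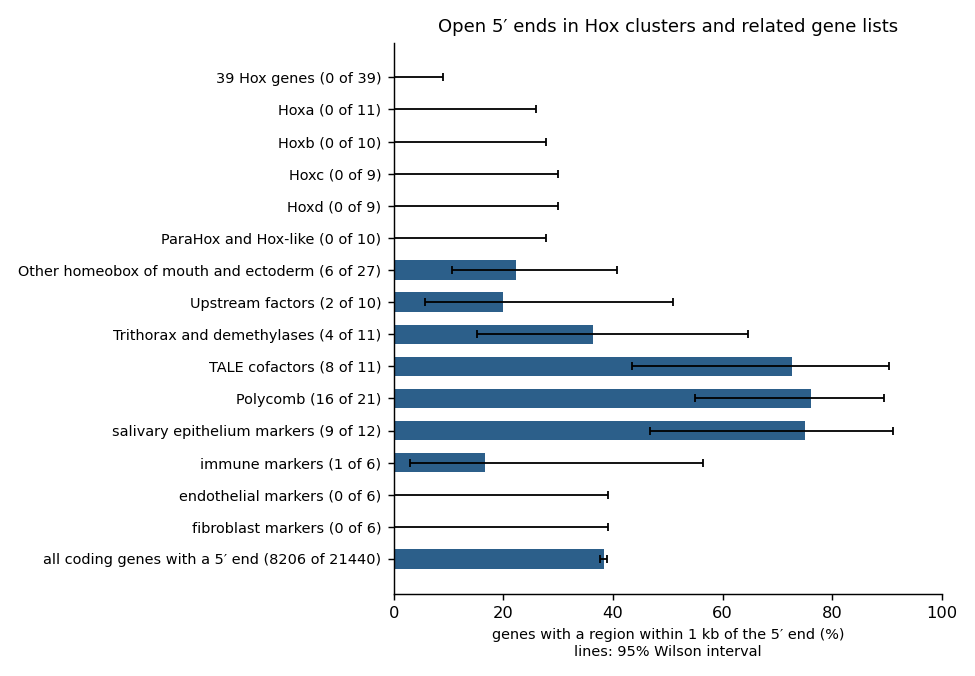
Share of genes with a region within 1 kb of the 5′ end (x axis, percent, with 95% Wilson intervals that cover counting error only) for the Hox genes in all and by cluster, for related gene lists, for cell type markers and for all coding genes. Hox, ParaHox, endothelial and fibroblast genes sit at 0, and the Polycomb list is highest at 16 of 21.

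Other gene clusters were set beside the Hox clusters by number of regions. The keratin clusters, which hold the genes of the intermediate filaments of epithelium and hair, had 11 regions in 1040 kb on chromosome 11 (1.06 per 100 kb) and 17 in 684 kb on chromosome 15 (2.49 per 100 kb). There, 3 of 27 and 3 of 26 keratin genes were open at the 5′ end, both shares below the 38.3% of all coding genes, namely Krt14, Krt16 and Krt17, and Krt5, Krt6a and Krt8. The 2 clusters of Irx homeobox genes had 15 regions in 1310 kb (1.14 per 100 kb) and 18 in 882 kb (2.04 per 100 kb). Of these 4 compared clusters, each thus held regions in its span, with median folds from 5.50 to 6.86. Long stretches without a region occurred there too. Within the keratin cluster on chromosome 11, a stretch of 474 kb with 38 coding 5′ ends, led by keratin-associated protein genes, held no region, nor did one of 314 kb with 11, led by keratin genes, which reached past the edge of the span.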

How the data were processed

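Reads were paired-end, and the authors used the pipeline of the ENCODE project for alignment and peaks. Its version and filters are not given in the sources used here. The columns used from the deposited list were the IDR score, the fold (ratio) over local background, and the q-value as −log10. Its 69545 lines were joined into 32011 distinct regions, each carrying the values of the summit with the lowest q-value. The study's methods describe a consensus list of all organoid samples but do not name this list, and the size they state matches neither its lines nor its distinct regions. That it pools all 4 samples is therefore taken as likely, not as known. The submitters' processing notes name GRCm39 and HOMER. However, 38.3% of GRCm38 coding 5′ ends and 5.03% of GRCm39 ones lay within 1 kb of a region (3.97% for GRCm38 ends shifted by 100 kb), so the list was read as GRCm38.

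Strand came from the RefSeq promoter table (GRCm38.p6) for 17492 coding genes, 22 of them Hox genes, and by name from GENCODE (GRCm39) for the other 3948, 17 of them Hox genes. The 2 sources gave the same strand for 99.4% of 22110 genes. Earlier results of these data were known when the members and lists were chosen. Named genes are Hox genes, genes of the lists and markers, genes within 100 kb of a cluster, and the next gene with a region on each side; the keratin genes, the genes of CpG-rich stretches and Smug1 were named after their values were seen. A list member named Znf703 was not matched in the table. Some genes that enter the counts are not reported here by name. Counts are descriptions without a test. Functions were tested on simulated regions. Calculations used Python 3.11.15 with pandas 2.3.3 and numpy 2.4.6, and figures matplotlib 3.10.9.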

Additional observations from a re-analysis of the deposited data

How the results depend on the processing

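The count of 0 open 5′ ends among Hox genes was also 0 with distances of 500 bp and 2 kb, any overlap, either gene end, every start of the promoter table (an alternative chosen after the data were seen), the 16006 regions with the lowest q-values and the 14422 regions with an IDR score of 1000. Since the nearest region lay 81.2 kb from a Hox 5′ end, these settings could hardly give another count and say nothing about its stability. The same holds for the spans, with 0 regions under both stricter sets, by lines and by any overlap. Reading the list as GRCm39, also chosen after the data were seen, gave 0 of 39 but put most 5′ ends out of place, so it supports nothing. Of all coding genes, 7580 had an open 5′ end within 500 bp, 8879 within 2 kb, 8392 by any overlap, 8554 at either end, 5549 with the lowest q-values and 5153 with an IDR score of 1000. Over the 90 genes of the related lists, 36 became 22 under both stricter sets of regions. Within 100 kb of the clusters, 2 regions became 1 under both stricter sets, 7 by lines, 0 with flanks of 50 kb and 11 with flanks of 200 kb. The median over coding genes of 2 regions within 50 kb became 4 within 100 kb and 1 with the lowest q-values, while that over Hox genes was 0 in each case.

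The effect of single samples could not be examined, since the list has no values for them. No paired analysis was possible because the list cannot be split into samples. The depth is unknown, and a region missing from the list shows only that the list used here does not hold it.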
